A study of Canis lupus familiaris with 4 samples.

Results

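Isolated closed peaks are sites of accessible chromatin that were present in mature monolayers of MDCKII cells, nearly gone 2 h after the cells were detached and reseeded, and not accompanied by a weakened peak nearby. MDCKII is an epithelial line from canine kidney that forms polarised monolayers in culture. The peaks were chosen by the measured values themselves. The mean of the mature libraries had to be at least 8 CPM (counts per 1000000 counts in peaks), the mean of the reseeded libraries had to be under 2 CPM, and the peak had to lie on 1 of the 38 numbered chromosomes. No other peak with its midpoint within 10 kb could be weakened, meaning a reseeded to mature ratio of 0.5 or less with 0.5 CPM added to each mean. These conditions were met by 848 of the 57672 peaks on numbered chromosomes, out of 59081 peaks in the whole series. A further 648 peaks met both level conditions but had a weakened peak within 10 kb, so 56.7% of the 1496 closed peaks were isolated. Because the contrast between the states chose the peaks, their differences between the states are given as a description, with no test.

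The 4 libraries were made by ATAC-seq, which maps open DNA by the places where the transposase Tn5 can insert sequencing tags. Mature libraries A and B came from wt cells grown for 7 d to full maturity. Reseeded libraries A and B came from wt cells grown in the same way, then detached and left for 2 h after reseeding. All were in MEM with FBS and antibiotics, and no other allele or agent is named. The labels do not say whether A and B of a state are separate cultures, so the spread between them may be technical. The sample names of each state start with a code of its own, and a batch behind that code cannot be told apart from reseeding.

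Counts in peaks totalled 6253706 to 8759513 in the mature and 16906566 to 24015663 in the reseeded libraries, so the reseeded values rest on more counts. A count of 3, taken as the floor, equals 0.342 and 0.480 CPM in mature A and B, and 0.177 and 0.125 CPM in reseeded A and B. Peaks with low values throughout were rare in the table, and 28 lay under 5 CPM in mature and in reseeded cells alike. Of 1565 peaks under 2 CPM after reseeding, 1496 (95.6%) had at least 8 CPM in mature cells and 69 had less. Among peaks under 2 CPM after reseeding, the mature threshold therefore lies close to the lower edge of what the table holds, whereas 67.9% of all peaks had a mature mean of 8 CPM or more. The mature libraries differed from each other at part of the isolated closed peaks, most of all near chromosome ends, and those values are given with the positions.

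Accessible peaks in epithelial cells mark promoters, enhancers and sites bound by insulator proteins, where nucleosomes are displaced by bound factors. Peaks that open or close with cell state are mostly found away from promoters, where enhancers respond to the factors that a state provides. Mature epithelial cells are held by junctions and attached to a matrix, and detachment removes both kinds of contact at once. Peaks were not placed on genes here, so none is called a promoter or an enhancer, and the epithelial identity of the cells was not checked against marker genes.

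The isolated closed peaks were moderate peaks in mature cells and kept a small, countable signal after reseeding. Their CPM ran from 3.54 through a median of 11.3 to 36.4 in mature A and from 4.80 through 12.6 to 36.0 in mature B. In reseeded A it ran from 0.0591 through 1.12 to 2.43, and in reseeded B from 0.167 through 1.25 to 2.46. The lowest mature value of any of these peaks thus lay above the highest reseeded value. The rule sets a lower limit on the mature mean and a far lower upper limit on the reseeded mean. This gap therefore follows largely from how the peaks were chosen. None of the 848 was without a count in both reseeded libraries. The median was 19 counts in reseeded A and 30 in reseeded B, with lowest counts of 1 and 4. The reseeded mean was a median of 9.30% of the mature mean, from 1.26% to 23.7%. In bulk libraries, fewer cells with an open site and less frequent opening in each cell cannot be told apart.

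**Figure D1:**
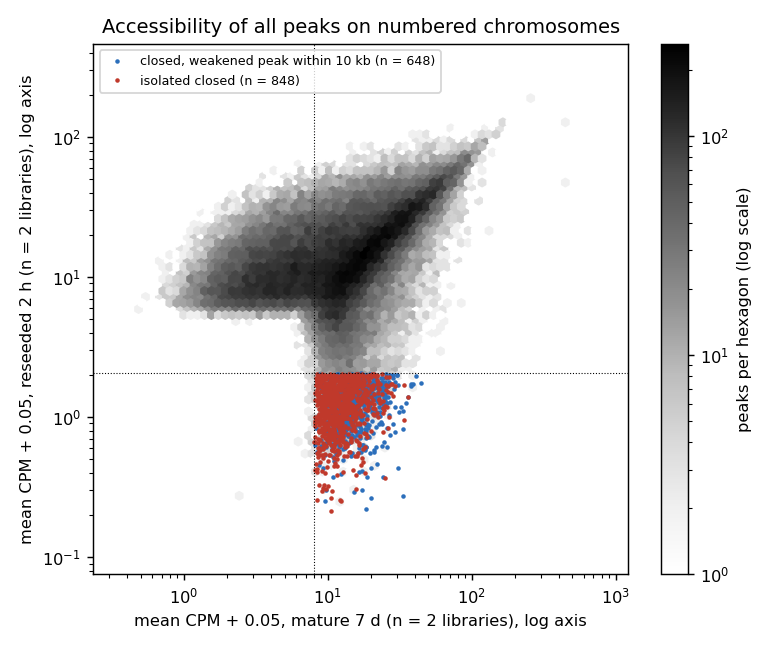
Mean accessibility of each peak on the numbered chromosomes in mature cells (x axis, mean CPM + 0.05 of 2 libraries, log axis) and in reseeded cells (y axis, likewise), with all peaks as grey hexagons, the 848 isolated closed peaks as red points and the 648 closed peaks with a weakened peak within 10 kb as blue points. Dotted lines mark the thresholds of 8 and 2 CPM, and the corner that is low in both states is almost empty of peaks.

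Fitted over all peaks with edgeR, the log2 fold of reseeded over mature at the isolated closed peaks had a median of -3.44, with quartiles of -3.88 and -3.04 and a range of -6.31 to -2.14. The median log2 fold of all peaks was -0.0086. At least 8-fold lower accessibility was fitted at 654 of the 848, at least 16-fold at 173 and at least 32-fold at 25. Of 57667 tested peaks on numbered chromosomes, 1568, 382 and 59 were called at these folds. Of the 648 closed peaks with weakened neighbours, 578, 182 and 33 were. All 848 were called at an adjusted p under 0.05, where 84.1% of all tested peaks were called, and all 848 were called at least 4-fold lower, where 6.04% of all tested peaks were. The rule used the same contrast, so nothing is read from these counts.

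The closed peaks came from the lower and middle part of the mature range and none from its top. The rule sets a fixed reseeded level, so a stronger mature peak has to lose a larger part of its signal to qualify, and the shares that follow are a description of what the rule chose. Between 8 and 12 CPM in mature cells, 435 of 9658 peaks (4.50%) were isolated and closed. The share was 3.32% (270 of 8122) from 12 to 16 CPM, 1.60% (86 of 5386) from 16 to 20 CPM and 0.709% (54 of 7621) from 20 to 30 CPM. From 30 to 40 CPM, 3 of 3818 peaks qualified, and above 40 CPM none did among 3059 peaks up to 60 CPM and 1508 beyond. Counting closed peaks with weakened neighbours as well, only 2 peaks above 40 CPM were under 2 CPM after reseeding, with a highest mature mean of 44.4 CPM. The median mature mean of the isolated closed peaks, 11.9 CPM, exceeded that of 48.5% of all peaks, which places them near the middle of the table.

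Both states were used by the rule, so each pair of libraries with the same letter was also read in peaks chosen from the other pair. The letter pairs libraries by name only. Choosing by the same rule from mature A and reseeded A alone gave 823 peaks. In the B libraries these had a median of 12.6 CPM in mature and 1.29 CPM in reseeded cells, and 663 of them (80.6%) met both thresholds there. The reseeded B value was lower than the mature B value at all 823, and at least 4-fold lower, with 0.5 CPM added to each, at 770 (93.6%). Choosing from mature B and reseeded B gave 816 peaks, with a median of 11.5 CPM in mature A and 1.18 CPM in reseeded A. Of these, 667 (81.7%) met both thresholds in the A libraries, and 792 (97.1%) were at least 4-fold lower. Among all peaks with at least 8 CPM in the mature library that was read, 7.17% were at least 4-fold lower in B and 7.50% in A. Each set was thus also lower after reseeding in the pair that did not choose it. Most of these peaks were isolated closed peaks by all 4 libraries as well (745 of the 823 and 753 of the 816). Libraries A and B of a state may be technical copies and share that state's name code. A batch behind the code therefore cannot be told apart from reseeding by this reading.

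**Figure D2:**
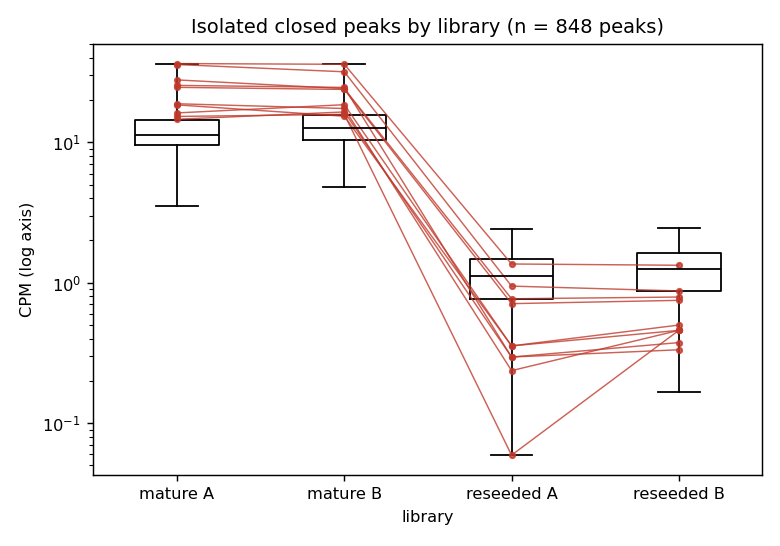
CPM of the 848 isolated closed peaks in each library (y axis, log scale), with boxes from the lower to the upper quartile, a line at the median and whiskers to the lowest and highest peak, and with red lines joining the values of the 10 peaks with the lowest ratio. The mature medians are 11.3 and 12.6 CPM and the reseeded medians 1.12 and 1.25 CPM. The mature and reseeded ranges do not overlap, which follows largely from the thresholds that chose the peaks.

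The lowest ratio of reseeded to mature accessibility was at chr4:10773814-10774314 (CanFam3.1, as for all positions). It had 25.5 CPM in mature A and 24.6 CPM in mature B, and 0.296 and 0.333 CPM in reseeded A and B, which are 5 and 8 counts. Mature libraries were thus near each other and both reseeded libraries were within a few counts of the floor. The fitted log2 fold was -6.31 (SE 0.23), or 79.1-fold, and the pooled counts gave a ratio of 79.0 with a 95% exact (Clopper-Pearson) counting interval of 45.7 to 150. A single other peak lay within 10 kb, 3.13 kb away at chr4:10776945-10777445, and it had 15.9 and 15.8 CPM in mature and 12.7 and 14.4 CPM in reseeded cells.

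The peak at chr38:21466438-21466938 combined a high mature level with a low remainder, at 35.8 and 31.8 CPM in mature A and B and 0.946 and 0.874 CPM in reseeded A and B. Its log2 fold was -5.27 (SE 0.17). Within 10 kb lay 4 other peaks, which had mature means of 17.7 to 31.6 CPM and reseeded means of 13.7 to 29.4 CPM. None of those 4 had a log2 fold outside -0.49 to 0.49, against a fitted difference of 38.5-fold at the closed site. The rule allowed no peak within 10 kb at a ratio of 0.5 or less, so a loss shared with them was excluded beforehand. The strongest member of all, chr9:53483548-53484048, had 36.4 and 36.0 CPM in mature and 1.36 and 1.33 CPM in reseeded cells. Its log2 fold was -4.79 (SE 0.15), and its nearest peak was 25.9 kb away.

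Several of the deepest losses rested on a handful of reseeded counts. At chr23:1022745-1023245, reseeded A held 1 count and reseeded B 11, against 134 and 99 in the mature libraries, and the pooled ratio was 52.9 with an interval of 29.7 to 104. At chr17:23999844-24000344 the counts were 165 and 109 in mature and 4 and 11 in reseeded cells, with a ratio of 49.8 and an interval of 29.7 to 90.2. The other members of the lowest 10 ratios were chr4:74344979-74345479, chr21:35197817-35198317, chr34:7131484-7131984, chr1:47320008-47320508 and chr20:44145041-44145541, with log2 folds of -5.50 to -5.08. Mature A and B differed by at most 0.26 on the log2 scale at each of these 10 peaks.

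Strong mature peaks that closed were spread over many chromosomes. Members with the highest mature mean, after those on chromosomes 9 and 38, were chr10:19366302-19366802 at 33.7 ± 0.512 CPM (mean ± SD, n = 2) and chr12:3194705-3195205 at 29.1 ± 0.281 CPM. They had 1.66 ± 0.250 and 1.61 ± 0.191 CPM after reseeding. Chromosome 2 held chr2:22746255-22746755 at 28.3 ± 0.656 CPM and chr2:17093229-17093729 at 27.4 ± 1.44 CPM, with 1.36 ± 0.0910 and 1.66 ± 0.179 CPM after reseeding. The remaining members of the highest 10 were chr30:29384527-29385027, chr10:26944623-26945123, chr21:38191225-38191725 and chr31:26748012-26748512, with mature means of 26.5 to 27.7 CPM and reseeded means of 0.952 to 1.87 CPM. At each of these 10 the SD between libraries of a state was small beside the difference between states.

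Just inside the mature threshold, chr34:11814439-11814939, chr3:52080571-52081071 and chr6:38012982-38013482 had mature means of 8.02, 8.03 and 8.04 CPM. Peaks just outside it that met all other conditions were chr32:2717458-2717958, chr20:36060777-36061277 and chr2:14604752-14605252, at 7.98, 7.95 and 7.95 CPM. Nearest under the reseeded threshold were chr8:71791998-71792498, chr25:50357559-50358059 and chr13:34617810-34618310, each at 2.00 CPM when rounded. Just outside were chr1:106993686-106994186, chr2:5036904-5037404 and chr5:17841086-17841586, at 2.00, 2.00 and 2.01 CPM. The values thus ran on across both thresholds without a gap.

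About as many isolated closed peaks stood alone as had other peaks around them. In 431 cases (50.8%) no other peak midpoint lay within 10 kb. The other 417 had 1 to 8 such peaks, with 1 in 214 cases, 2 in 108 and 3 in 51. Among all peaks on numbered chromosomes 26.9% had none within 10 kb, and among other peaks of the same mature level (8 to 36.2 CPM, with at least 2 CPM after reseeding) 23.2% had none. A peak has fewer ways to fail the rule when it has no neighbour, so the higher share follows in part from how the peaks were chosen. Lone peaks and peaks with neighbours were alike in level, with median mature means of 11.6 and 12.1 CPM, median reseeded means of 1.08 and 1.28 CPM and median log2 folds of -3.51 and -3.39.

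Peaks beside an isolated closed peak stayed accessible, which the rule requires in part. They numbered 787 different peaks in 788 pairs, with a median of 13.2 CPM in mature and 15.3 CPM in reseeded cells. By the ratio of means with 0.5 CPM added, 382 (48.5%) lay between 0.5 and 1, 215 (27.3%) between 1 and 2, and 191 (24.2%) at 2 or more. Among all 49888 peaks above the ratio of 0.5 those shares were 40.7%, 28.7% and 30.6%. In 259 of the 417 cases (62.1%) a neighbour within 10 kb was higher in mature cells than the peak that closed, and in 299 (71.7%) a neighbour in reseeded cells exceeded what the closed peak had in mature cells. The highest of up to 8 neighbours was taken, and such shares were not counted for other peaks. All peaks on numbered chromosomes had a median reseeded mean of 13.0 CPM, above the median mature mean of the isolated closed peaks (11.9 CPM).

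The loss could end over less than 1 kb. At 63 isolated closed peaks (7.43%) another peak midpoint lay within 1 kb, against 315 of the 648 closed peaks with weakened neighbours and 21.05% of all peaks on numbered chromosomes. The 648 have a peak within 10 kb by definition, and the rule barred weakened neighbours from the isolated ones. These differences therefore follow in part from the rule. At chr10:26944623-26945123, mature A and B had 27.4 and 27.3 CPM and reseeded A and B had 1.48 and 1.37 CPM. The peak 0.689 kb away, chr10:26943934-26944434, had 28.7 and 30.2 CPM in mature and 25.9 and 24.1 CPM in reseeded cells. The pair was equally accessible in mature cells and far apart in reseeded cells. At chr30:29384527-29385027, with 28.8 and 26.7 CPM in mature and 1.60 and 1.75 CPM in reseeded cells, the peak 0.571 kb away had 11.99 and 10.2 CPM in mature and 6.86 and 6.75 CPM in reseeded cells. All peaks have the same width, so at these distances both pairs are windows that nearly adjoin, and the rule accepted the second neighbour because its ratio was over 0.5.

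Some closed peaks had a neighbour that opened. Among the 417 with other peaks within 10 kb, 160 had at least 1 that was called at least 2-fold higher. Of all tested peaks, 26.9% were called at least 2-fold higher, a share of single peaks that cannot be set against a count of sites with up to 8 neighbours each. Per neighbour, the share at a ratio of 2 or more was the 24.2% given above, under the 30.6% among all peaks above the ratio of 0.5. The largest such gain was beside chr20:959625-960125, which had 10.2 and 6.56 CPM in mature and 1.66 and 1.79 CPM in reseeded cells. Only 1.07 kb away, chr20:960692-961192 had 2.51 and 3.20 CPM in mature but 41.2 and 40.6 CPM after reseeding. The fit put its log2 fold at 3.82 (SE 0.15). Beside chr34:22339159-22339659, with 15.1 and 14.2 CPM in mature and 1.18 and 1.62 CPM in reseeded cells, the peak 4.17 kb away went from 4.34 and 4.80 CPM to 44.8 and 42.3 CPM. The other members with the highest gain beside them were chr3:17997935-17998435, chr27:16047459-16047959 and chr20:32453910-32454410, whose neighbours at 4.16 to 7.92 kb had log2 folds of 2.97 to 3.57.

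Beyond 10 kb, where the rule made no demand, isolated closed peaks had somewhat more weakened and closed peaks around them than all peaks had, and far fewer than the other closed peaks. At 10 to 50 kb, 757 of 3511 neighbouring peaks (21.6%) were called lower by 2-fold or more and 732 (20.8%) higher by as much. Around all peaks these shares were 18.0% and 21.9% at the same distance. Closed peaks made up 197 of those 3511 neighbours (5.61%), and 9.08% around isolated closed peaks that had no peak within 10 kb, against 2.84% around all peaks. Over all tested peaks, counted once each, 15.0% were called at least 2-fold lower. Around the closed peaks with a weakened neighbour 42.6% of peaks at 10 to 50 kb had fallen by that much and 9.16% had risen by it. From 50 to 100 kb the shares at least 2-fold lower were 19.0% around isolated closed peaks, 33.2% around the others and 16.6% around all peaks. The closed peaks were sorted into these 2 sets by whether a weakened peak lay within 10 kb. Their contrast with each other beyond 10 kb therefore follows in part from that sorting. A peak near several others is counted for each, so these are shares of pairs and carry no test.

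**Figure D3:**
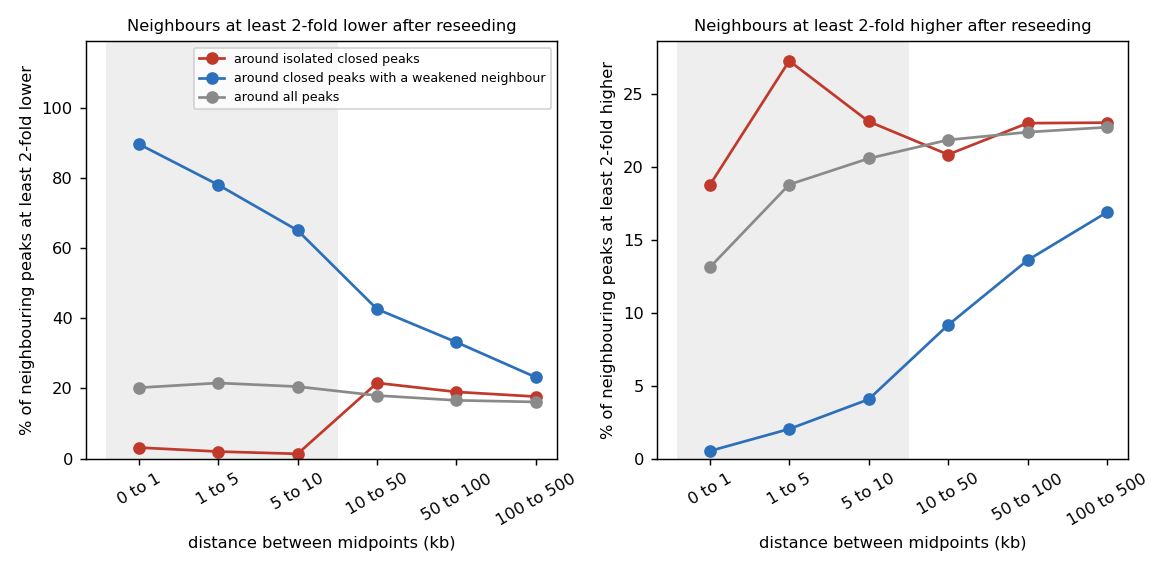
Share of neighbouring peaks (y axis, %) that fell (left) or rose (right) by at least 2-fold after reseeding, by distance between midpoints in kb (x axis), around isolated closed peaks (red), closed peaks with a weakened neighbour (blue) and all peaks (grey). The grey band marks distances at which the rule limits the neighbours of isolated closed peaks, and beyond it the red line is at 21.6% lower at 10 to 50 kb against 18.0% around all peaks.

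The excess over all peaks was larger near chromosome ends than elsewhere. Within 3 Mb of either end of a chromosome, 228 of 582 neighbours at 10 to 50 kb (39.2%) were at least 2-fold lower, against 25.3% around all peaks there. In the interior the shares were 18.1% (529 of 2929) and 16.99%. An end means here the first base of the chromosome's coordinates or the last peak.

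Isolated closed peaks themselves were more frequent near chromosome ends. They made up 4.04% (92 of 2276) of the peaks within 1 Mb of an end, 2.30% (49 of 2134) from 1 to 2 Mb, 1.57% (31 of 1974) from 2 to 3 Mb and 1.28% (258 of 20146) beyond 20 Mb. The first 3 Mb held 80 and the last 3 Mb 92, together 20.3% of the 848, where 11.1% of all peaks lay. Of other peaks of the same mature level 11.9% lay there. Lone peaks were there in 117 of 431 cases (27.1%) and peaks with neighbours in 55 of 417 (13.2%). Closed peaks with weakened neighbours were there in 27.9% of cases.

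Near the ends the mature libraries differed, and B was the higher. At the 172 isolated closed peaks within 3 Mb of an end, the median was 10.4 CPM in mature A and 13.8 CPM in mature B, and 1.01 and 1.21 CPM in reseeded A and B. The log2 ratio of mature B to mature A (with 0.5 CPM added) had a median of 0.39 and was above 0 at 131 of them (76.2%). At the 676 interior peaks the medians were 11.5 CPM in mature A and 12.2 CPM in mature B, the ratio had a median of -0.0017, and it was above 0 at 337 (49.9%). Closed peaks with weakened neighbours had median ratios of 0.53 near the ends and 0.23 in the interior, so in that set the difference was not limited to the ends. Other peaks of the same mature level had medians of 0.0091 near the ends and -0.013 in the interior. The difference between the mature libraries was thus seen at closed peaks near the ends and not in the median of other peaks of like mature level there, a set that needed only 2 CPM after reseeding and so holds weakened peaks too. The part of this difference in the excess of closed peaks near the ends was not tested. The median log2 fold was -3.42 at interior isolated closed peaks and -3.51 at those near the ends. Reseeded B was also somewhat above reseeded A at the isolated closed peaks. That log2 ratio had a median of 0.15 near the ends and 0.087 in the interior. Over all peaks on numbered chromosomes its medians were 0.0055 and 0.0014.

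**Figure D4:**
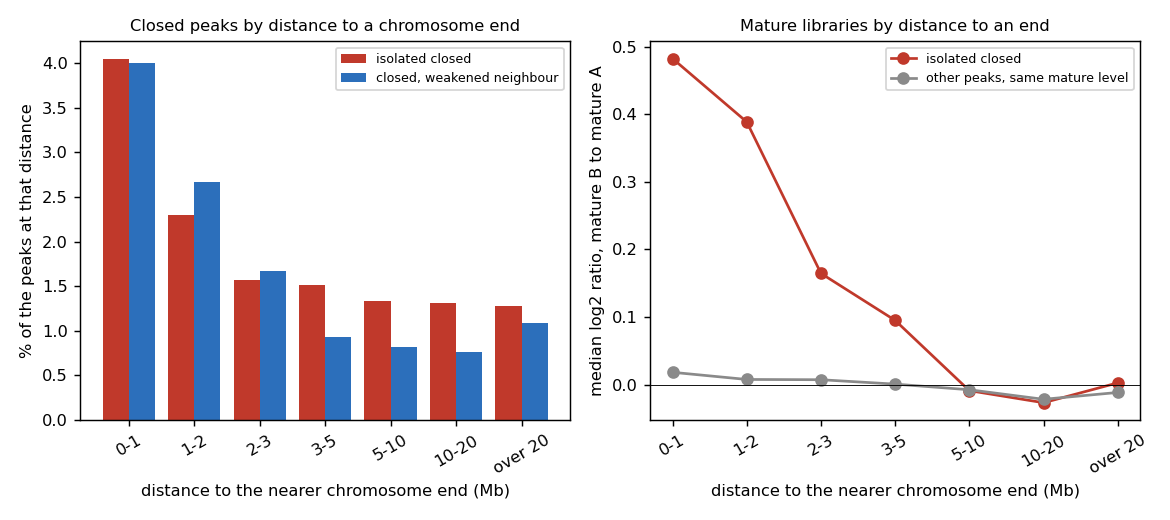
Left, share of all peaks (y axis, %) that were isolated closed peaks (red) or closed peaks with a weakened neighbour (blue), by distance to the nearer chromosome end in Mb (x axis). Right, median log2 ratio of mature B to mature A by the same distance for isolated closed peaks (red) and other peaks of the same mature level (grey), which falls from 0.48 within 1 Mb to -0.0090 at 5 to 10 Mb in the former and stays between -0.022 and 0.018 in the latter.

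Across all 848, the log2 ratio of mature B to mature A had a median of 0.051, with quartiles of -0.13 and 0.32. It lay within 0.2 of 0 at 416 peaks (49.1%), above 0.5 at 137 (16.2%) and below -0.5 at 18 (2.12%). Of all peaks on numbered chromosomes 10.0% were above 0.5, of other peaks of the same mature level 2.052%, and of the closed peaks with weakened neighbours 37.3%. The other peaks of the same mature level shared the range of the isolated closed peaks but were stronger within it. Their median mature mean was 15.6 CPM, against 11.9 CPM. The squared deviation of the mature counts from an even split by library total was taken in units of counting variance. It averaged 3.14 per isolated closed peak, 7.18 per closed peak with weakened neighbours and 1.35 per other peak of the same level. Over all peaks on numbered chromosomes it averaged 1.71. Counting error alone gives about 1. For the reseeded pair the same measure was 1.16 at the isolated closed peaks.

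The 137 peaks with a ratio above 0.5 shared other features. Of these, 69 (50.4%) lay within 3 Mb of a chromosome end and 96 (70.1%) had no other peak within 10 kb. Of the peaks 10 to 50 kb from them, 40.3% were at least 2-fold lower. For the 416 peaks with a ratio within 0.2 these shares were 10.6%, 44.2% and 19.8%. Their median CPM was 8.79 in mature A and 14.6 in mature B, and 0.946 and 1.12 in reseeded A and B, so even mature A stood well above both reseeded libraries.

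The highest ratios among peaks with at least 100 mature counts were at chr11:40766524-40767024, chr15:8575412-8575912, chr17:911233-911733, chr17:1539408-1539908 and chr5:3576261-3576761, from 1.18 to 1.75. The first of these had 3.54 CPM in mature A, 13.1 CPM in mature B, 0.473 CPM in reseeded A and 0.541 CPM in reseeded B. It was a peak above 8 CPM in mature B only, and its mean of 8.33 ± 6.77 CPM (SD, n = 2) passed the threshold through that library. None of these 5 had another peak within 10 kb. The lowest ratios were at chr8:44203554-44204054, chr32:12233517-12234017, chr5:14972400-14972900, chr24:9263329-9263829 and chr3:24511467-24511967, from -1.16 to -0.65. The first of those had 11.3 CPM in A and 4.80 CPM in B before detachment, against 0.887 and 0.750 CPM after reseeding. Requiring the thresholds in each library by itself left 666 of the 848 peaks.

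Isolated closed peaks were found on all 38 numbered chromosomes, at 14.7 per 1000 peaks in all. Chromosome 29 had 28.0 per 1000 (15 of 535 peaks), followed by chromosome 16 with 24.9 (23 of 925) and chromosome 17 with 21.4 (56 of 2623). The lowest rates were 6.85 on chromosome 11 (10 of 1459), 9.64 on chromosome 6 (23 of 2386) and 10.1 on chromosome 20 (26 of 2582). These rates depend on how many peaks a chromosome holds, which was 12.8 per Mb on chromosome 29, 15.7 on 16 and 44.5 on 20. Per 10 Mb, chromosomes 29, 16 and 20 held 3.59, 3.90 and 4.48 isolated closed peaks, against a median of 3.62 over chromosomes. Chromosome 17 held 8.71 by that measure, chromosome 6 2.97 and chromosome 11 1.34. On chromosome 29, 15 of 16 closed peaks were isolated, whereas chromosome 27 had 14 isolated among 42 and chromosome 9 had 46 among 131.

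Isolated closed peaks were most frequent where peaks were sparse. Peaks were put into 10 classes by the number of other peaks within 500 kb. In the sparsest class (median 12 others), 3.87% were closed and 2.69% were isolated closed peaks. In the fifth class (median 42) these shares were 2.27% and 1.72%, and in the densest (median 104) 2.69% and 0.763%. Of the closed peaks 69.5% were isolated in the sparsest and 28.4% in the densest class. A dense region offers more neighbours that can break the rule, so the fall in the isolated share follows in part from the rule. The most remote members were chr36:1445592-1446092 and chr36:352987-353487, each the nearest peak of the other at 1093 kb, and chr17:27316928-27317428, 629 kb from any peak.

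**Figure D5:**
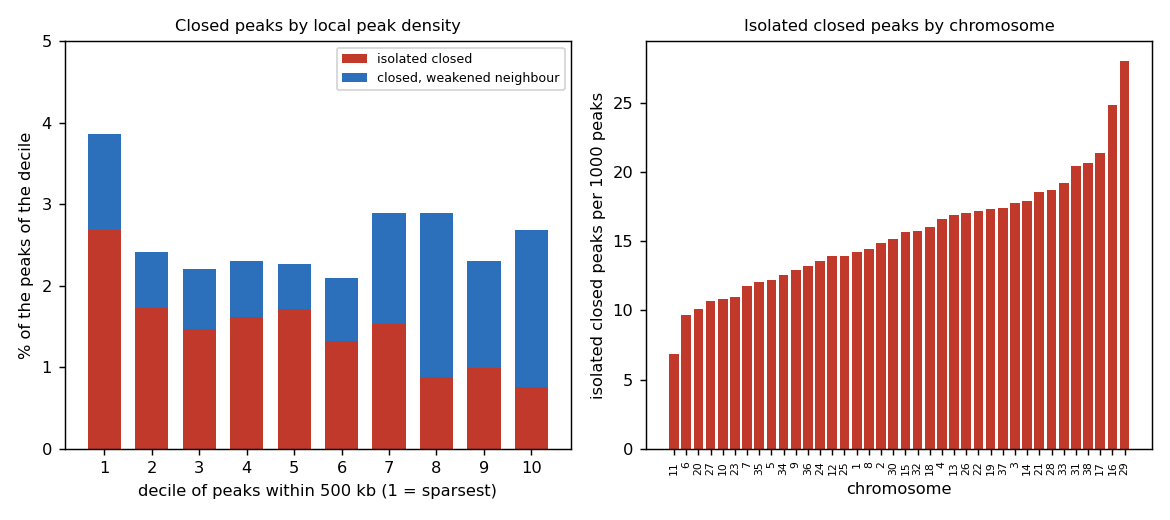
Left, share of peaks (y axis, %) that were isolated closed peaks (red) or closed peaks with a weakened neighbour (blue, stacked) by decile of the number of other peaks within 500 kb (x axis, 1 sparsest). Right, isolated closed peaks per 1000 peaks (y axis) by chromosome (x axis, ordered by rate), from 6.85 on chromosome 11 to 28.0 on chromosome 29.

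Along a chromosome, the median distance from 1 isolated closed peak to the next was 1262 kb, and 45 of 810 such pairs were within 50 kb. The rule bars isolated closed peaks within 10 kb of each other, and the shortest distance was 10.5 kb. No expected spacing was computed, so these distances do not show whether the peaks lay closer together or farther apart than other peaks would. Of the windows of 1 Mb that held any peak, 1393 held none, 450 held 1, 128 held 2 and 30 held 3, while the fullest window held 7. The windows named next were picked for their counts after the values were seen. The first 2 Mb of chromosome 17 held 13, among 49 peaks. There mature A had 5.82 to 16.8 CPM (median 8.68), mature B 12.5 to 23.3 CPM (median 15.99), reseeded A 0.237 to 1.72 CPM and reseeded B 0.541 to 1.499 CPM. Mature B exceeded mature A at 13 of 13, with log2 ratios of 0.46 to 1.25, whereas at the 30 peaks of the same stretch that were not closed it did so at 15, with a median ratio of 0.0066.

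A group of 5 in the interior of chromosome 1, from 55000001 to 56000000, did not show that difference. Mature A had 9.93 to 14.5 CPM and mature B 9.27 to 14.4 CPM, reseeded A 0.769 to 1.77 CPM and reseeded B 1.33 to 1.92 CPM. Mature B exceeded mature A at 2 of the 5, and their log2 folds were -3.32 to -2.73. That window's 52 peaks included 11 called at least 2-fold lower, the 5 members among them, and 10 called higher by as much. On chromosome 8 from 73000001 to 74000000, 5 isolated closed peaks lay among 11 peaks, 10 of which were called at least 2-fold lower. At those 5 the range was 7.08 to 10.96 CPM in mature A and 13.6 to 17.7 CPM in mature B. The 5 were spaced by more than 10 kb from every other weakened peak. All 10 lower peaks of the window met the closed thresholds, these 5 included, so their number follows from how peaks and window were picked.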

How the data were processed

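The authors deposited raw counts for 59081 peaks of equal width in 4 libraries, not normalized. Per the submitters' processing notes, Bowtie2, MACS2 and CanFam3.1 were used. Versions, treatment of duplicates, the Tn5 offset and how peaks entered the table are not stated in these sources, and each can change counts. Chromosome identifiers were taken as CanFam3.1's 38 numbered chromosomes and X; coordinates are 1-based.

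CPM was the count over the library's total in peaks. Over all peaks, reseeded was compared with mature in R 4.3.3 with edgeR 4.0.16 (filterByExpr, TMM, quasi-likelihood test, no block), and p-values were adjusted by Benjamini-Hochberg over 59076 tested peaks. The script was tested on simulated data. Peaks count as called where that adjusted p is below 0.05. Intervals on pooled counts cover counting error only, and PCR copies may be counted. Descriptions used numpy 2.4.6, scipy 1.17.1 and pandas 2.3.3.

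The members and the rules for named peaks were chosen with earlier results of these data known. Named peaks were the 10 highest mature means, the 10 lowest ratios, the 3 peaks on each side of each threshold, the 5 highest and 5 lowest ratios of mature B to A with at least 100 mature counts, the 5 with the highest neighbouring fold and the 3 farthest from any peak. The analysis by chromosome end was added after the data were seen. DESeq2 1.42.0 served as an alternative. The gene table at hand describes another assembly, so genes, sequences, motifs and markers were not analysed here.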

Additional observations from a re-analysis of the deposited data

How the results depend on the processing

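Of 82 alternatives, 66 left the count within 1.5 times or the value within its error. All 848 peaks were called lower under every fit run, and 845 to 848 of them at least 4-fold; leaving out 1 library gave 804 to 874 isolated closed peaks. With 1 library left in a state, it was assumed to vary like the other state's pair. Stricter rules changed the set by their construction: 498 peaks with an isolation distance of 50 kb, 413 with at least 12 CPM in mature cells and 304 under 1 CPM after reseeding. The last 2 had median log2 folds of -3.65 and -3.94. The share of peaks at 10 to 50 kb that were at least 2-fold lower was 24.1% with isolation at 5 kb, 14.2% at 20 kb, 0.879% at 50 kb, 24.9% under 1 CPM and 18.1% with the first and last 3 Mb left out, an alternative chosen after seeing the data. Isolation at 20 or 50 kb removes such neighbours by construction. The share with no peak within 10 kb was 45.7% and 57.6% with isolation at 5 and 50 kb, 47.2% from 12 CPM, 58.9% under 1 CPM and 46.4% without the chromosome ends, and the cause was not tested. Without the ends the median log2 ratio of mature B to A was -0.0017 in place of 0.051. A replicate block by library letter called 48979 peaks in place of 49688; the A minus B differences of the states had a correlation of 0.031 across all peaks and 0.14 across the isolated closed peaks, and the labels do not say that a letter pairs libraries. The mature libraries were the shallower, and reseeded values near 0.2 CPM rest on a few counts. Sequence-based alternatives were not run.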
